A study of Mus musculus with 3 samples.

Results

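The genes described here are 10 inducible genes of the mouse jaw: the Krüppel-like factor genes Klf2, Klf4, Klf6 and Klf10, the zinc finger gene Egr1, the orphan nuclear receptor genes Nr4a1 and Nr4a2, and Ier2, Rhob and Myadm. All 10 were found by symbol among the 31253 genes of the matrices, 22000 of which had at least 1 unique molecule (UMI) in the cells kept. The group was chosen from measured values of these same libraries, because Klf4, Klf10, Nr4a1, Myadm and Rhob were high in immune cells 7 days after irradiation. The 7-day values are therefore given as a description and support nothing by themselves. By family, 7 of them are KLF, EGR or NR4A genes, while Ier2, Rhob and Myadm belong to other families.

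Krüppel-like factors bind GC-rich and CACCC elements through a zinc finger domain, EGR proteins bind GC-rich sites and are made within minutes of a growth factor or antigen signal, and NR4A receptors act without a known natural ligand. Many of these genes are immediate early genes, whose transcription needs no new protein and whose short-lived RNA can also be induced by handling and enzymatic digestion of tissue. In lymphocytes, KLF2 is known for quiescence and for the genes of recirculation, NR4A1 is a common readout of antigen receptor signalling, and in myeloid cells KLF4 is known for its role in monocytes.

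The 3 libraries came from male wild-type C57BL/6 mice of 10 weeks, 24 animals in all, with jaw tissue of 8 mice pooled in each. Ctrl mice were not irradiated, and 1d and 7d mice were killed 1 or 7 days after a single dose of 10 Gy to the head and neck. All tissue was minced, digested with collagenase II for 60 min at 37 °C, frozen as a cell suspension and thawed for droplet sequencing of RNA 3′ ends, so every library shares these steps. Each condition is 1 library: there is no replicate, no test across conditions was possible, and every interval here covers counting error only. Condition, pool of mice and library cannot be told apart.

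After filtering, 8623 cells of Ctrl, 4879 of 1d and 6094 of 7d were kept, with medians of 2419, 5022 and 3817 UMIs per cell, and the kept cells of any pair of libraries shared 9 to 14 barcodes. The cells fell into 26 clusters when 129 genes, the members and those of the gene lists used here, were left out of the clustering. A class is named "-like" where its marker genes fit, by a rule set after the clusters were seen, and otherwise keeps its cluster number and leading genes. Cluster 5 was led by Ltf and Ngp, cluster 8 by Fam129c and Rag1, cluster 12 by Aspn and Postn and cluster 16 by Dio3 and Bmp2. Cluster 7 was led by C1qb and Msr1 and held markers of both monocytes and macrophages. A class entered a comparison when each of its 2 libraries held 30 cells or more, which gave 14 classes for 1d and 13 for 7d. The comparisons share the Ctrl library. Because makeup differed widely between libraries (T-like cells were 1311, 168 and 1858 in Ctrl, 1d and 7d, and neutrophil-like cells 2684, 416 and 155), levels were read within a class. A level is the sum of a gene's UMIs per 1000000 UMIs of all cells of the class in that library (CPM), with an exact Poisson interval. A ratio is the level divided by that of Ctrl, and "higher" or "lower" in a count means at least 2-fold or at most 0.5-fold with at least 20 UMIs over both libraries.

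Upstream sequence was at hand for 7 of the 10 members, from RefSeq on GRCm38.p6. Klf10, Egr1 and Ier2 had none. The 5 printed here are all the KLF and NR4A members with a sequence, shown because they differ within a family in the 7d library: Klf2, Klf4 and Nr4a1 were at least 2-fold higher in 5 to 7 classes, and Klf6 and Nr4a2 in none. Each is the 250 bases before the annotated start, 5′ to 3′ in the direction of the gene. Capitals mark matches on either strand to TGACG, the core of the cyclic AMP response element, to GCGNGGGCG, the EGR site, and to the MEF2 site.
Klf2: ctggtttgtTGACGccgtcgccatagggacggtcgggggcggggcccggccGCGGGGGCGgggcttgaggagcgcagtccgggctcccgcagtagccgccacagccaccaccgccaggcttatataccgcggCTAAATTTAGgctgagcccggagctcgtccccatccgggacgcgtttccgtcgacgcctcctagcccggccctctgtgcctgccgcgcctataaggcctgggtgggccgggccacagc
Klf4: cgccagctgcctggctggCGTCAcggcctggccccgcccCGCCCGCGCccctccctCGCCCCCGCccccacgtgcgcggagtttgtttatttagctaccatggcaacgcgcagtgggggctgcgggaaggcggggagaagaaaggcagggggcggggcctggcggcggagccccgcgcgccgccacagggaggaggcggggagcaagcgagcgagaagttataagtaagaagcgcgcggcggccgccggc
Klf6: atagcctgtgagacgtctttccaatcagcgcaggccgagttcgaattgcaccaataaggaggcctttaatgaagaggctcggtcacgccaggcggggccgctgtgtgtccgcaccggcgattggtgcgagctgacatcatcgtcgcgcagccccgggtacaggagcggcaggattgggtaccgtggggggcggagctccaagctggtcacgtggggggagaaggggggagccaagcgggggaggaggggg
Nr4a1: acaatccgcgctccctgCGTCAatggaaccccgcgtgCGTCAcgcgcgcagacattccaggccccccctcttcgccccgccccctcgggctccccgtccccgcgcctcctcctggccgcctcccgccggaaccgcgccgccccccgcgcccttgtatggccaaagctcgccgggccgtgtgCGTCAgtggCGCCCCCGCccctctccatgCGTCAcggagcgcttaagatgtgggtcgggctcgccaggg
Nr4a2: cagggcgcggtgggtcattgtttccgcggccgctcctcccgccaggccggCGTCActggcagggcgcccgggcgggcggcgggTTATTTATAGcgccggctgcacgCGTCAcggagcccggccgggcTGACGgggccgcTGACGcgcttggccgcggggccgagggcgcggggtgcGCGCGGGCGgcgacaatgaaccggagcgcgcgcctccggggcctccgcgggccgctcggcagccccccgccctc
They lie at chr8:72318812-72319061, plus strand (Klf2), chr4:55532476-55532725, minus strand (Klf4), chr13:5861239-5861488, plus strand (Klf6), chr15:101266596-101266845, plus strand (Nr4a1) and chr2:57124004-57124253, minus strand (Nr4a2). The RefSeq start of Nr4a1 lies inside the longer GENCODE gene.

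TGACG was found 4 times before Nr4a1 and 4 times before Nr4a2, once before Klf2 and once before Klf4, and not in the windows of Klf6, Rhob and Myadm. Of 32851 RefSeq windows of this length, 17.8% held it. The EGR site was found at 2 places before Klf4 and at 1 place before Klf2, Nr4a1 and Nr4a2, against 4.7% of all windows. A MEF2 site stood before Klf2 and before Nr4a2, against 2.92% of windows. The CArG box, the serum response element core, was met only upstream of 1 of the 4 annotated starts of Myadm (1.47% of windows), and AAAGGTCA, the NR4A monomer site, in none of the windows of these 7 members (1.34% of windows). None of the marked matches overlap one another. Of 3 further motifs searched and not marked, GGGCGG, which can overlap the EGR site, was found 4 times before Klf4 and Nr4a2, 3 times before Nr4a1, 2 times before Klf2 and 1 time before Klf6 and Rhob (32.7% of windows), and it was in 3 of the 4 windows of Myadm. CACCC, a KLF core, stood 1 time before Klf2, Nr4a2 and Rhob and 1 or 2 times in each of the 4 windows of Myadm (52% of windows), and CACGTG 1 time before Klf4 and Klf6 (6.02% of windows). The 2 NR4A windows carry the same number of TGACG matches. Any link between matches and the ratios described below was not tested. A match is a stretch of letters, and no binding was measured.

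Counted over genes and classes, 48 of the 124 member-by-class pairs with at least 20 UMIs over both libraries were at least 2-fold higher in 7d than in Ctrl, and 9 were at most 0.5-fold. Over all genes tested in the same classes the shares were 11.8% higher and 10.7% lower. This contrast chose 5 of the members, so the count is given without being read further. At 1 day 18 of 133 pairs were higher and 13 lower, against 6.85% and 7.47% of all gene-by-class pairs. The choice of members named only 7d values. The 1-day contrast is still not independent of it, since both share Ctrl and earlier results of these data were known. The 18 higher pairs of 1d were 13.5% of the pairs tested and the 13 lower ones 9.77%. Of these 18, 14 lay in dendritic-like cells, progenitor-like cells and cluster 7, each with 4 or 5. The dendritic-like class held 115 cells in Ctrl and 95 in 1d, and the progenitor-like class 42 and 306. With only classes of at least 100 cells in both libraries, 6 of 78 pairs were higher and 9 lower. The share of all genes over those classes alone was not computed.

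Klf10, a factor first known as an early response gene to TGF-beta, was higher in 7d in more classes than any other member. In T-like cells its level was 30.3 CPM in Ctrl, 20.5 in 1d and 207 in 7d, from 136, 14 and 1358 UMIs. In NK-like cells it was 51.5 CPM in Ctrl, 69.9 in 1d and 273 in 7d, and in B-like cells 32.9 CPM in Ctrl, 54.2 in 1d and 153 in 7d. In all 3 lymphocyte classes the 7d library stood apart from both others, and the intervals of 7d and Ctrl did not overlap. The ratio of 7d to Ctrl was 6.83 (95% counting interval 5.72 to 8.2) in T-like cells, 5.31 (4.26 to 6.7) in NK-like cells and 4.65 (3.6 to 6.01) in B-like cells. It held in each cluster of the T-like class, at 6.8 in cluster 3, 6.06 in the Cd8b1-rich cluster 6 and 3.99 in the Foxp3-rich cluster 13.

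Klf10 was at least 2-fold higher in 7d in 12 of 13 classes, with a median ratio of 3.11 over the classes. Myeloid classes were among them: neutrophil-like cells held 72.6, 63.4 and 208 CPM in Ctrl, 1d and 7d, cluster 7 held 49.6, 64.3 and 154 CPM and dendritic-like cells held 35.4, 65.6 and 142 CPM. Progenitor-like cells went from 21.2 CPM in Ctrl to 41.8 in 1d and 110.1 in 7d. The class below 2-fold was cluster 12, rich in Aspn and Postn, with 68.3, 109 and 80 CPM and a ratio of 1.17 (0.842 to 1.6). Erythroid-like cells sat at the edge, at 2 (1.19 to 3.62). At 1 day no class of the 13 with enough UMIs passed 2-fold in either direction, and the ratios lay between 0.677 in T-like cells and 1.97 in progenitor-like cells.

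**Figure D1:**
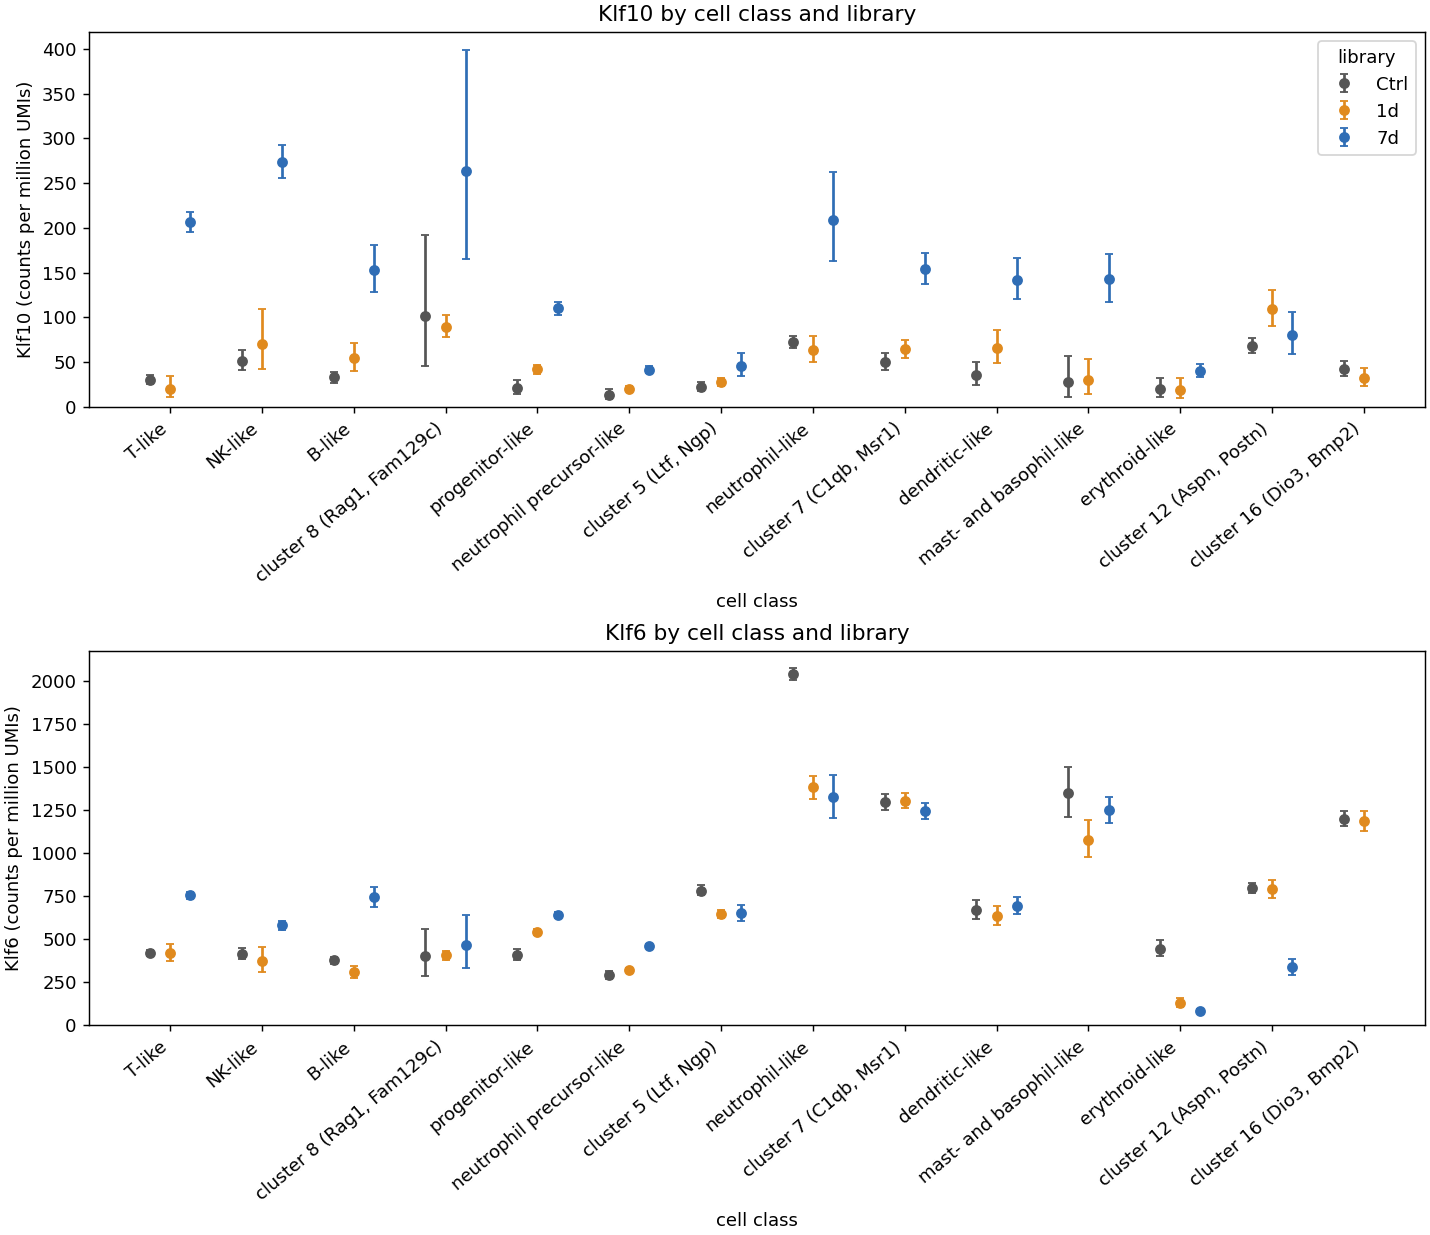
Levels of Klf10 (upper panel) and Klf6 (lower panel) in CPM for 14 cell classes. Each point is 1 library (grey Ctrl, orange 1d, blue 7d) and bars are exact 95% Poisson intervals of the summed count. Klf10 is highest in 7d in 12 of the 13 classes compared. Klf6 is at least 2-fold higher in 7d in no class and at most 0.5-fold in erythroid-like cells and cluster 12. Smaller differences of Klf6 include higher 7d levels in T-like, NK-like and B-like cells and a lower one in neutrophil-like cells.

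Klf10 UMIs were found in a larger share of cells in 7d. After every cell was thinned to 1000 UMIs, 2.78%, 0.621% and 18.2% of T-like cells in Ctrl, 1d and 7d held a Klf10 UMI (8.85%, 6.55% and 43.1% without thinning). The corresponding thinned shares were 4.24%, 14.3% and 24.2% in NK-like cells and 7.1%, 6.6% and 19% in neutrophil-like cells. The class with the lowest thinned Klf10 share in 7d, the neutrophil precursor-like cells, stood at 3.21%, and the lowest in Ctrl was the same class at 0 of 73 cells, for which the exact binomial interval reaches 4.93%. The median depth of the 7d cells was 3314 UMIs in T-like and 18360 in neutrophil precursor-like cells before thinning.

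Klf4, which restrains proliferation in many epithelia and is needed for monocyte development, was most abundant outside the blood lineages in Ctrl. Its level there was 1510 CPM in epithelial-like cells, 1434 in cluster 16, 1247 in cluster 12 and 1206 in endothelial-like cells, against 108 in T-like and 11.6 in neutrophil-like cells. In T-like cells Klf4 was 108 CPM in Ctrl, 202 in 1d and 449 in 7d, and the 7d ratio was 4.17 (95% counting interval 3.79 to 4.6). In cluster 7 it was 308 CPM in Ctrl, 699 in 1d and 1266 in 7d, the ratios being 2.27 (2.08 to 2.48) at 1 day and 4.11 (3.78 to 4.48) at 7 days. Dendritic-like cells held 131 CPM in Ctrl, 301 in 1d and 820.2 in 7d, with ratios of 2.29 (1.83 to 2.89) and 6.25 (5.14 to 7.66). In these 2 myeloid classes the 3 libraries did not overlap and stood in the order Ctrl, 1d, 7d. In NK-like cells the values were 336, 272 and 621 CPM and the 7d ratio, 1.85, stayed under 2. Over all classes Klf4 was at least 2-fold higher in 7d in 7 of 13 and lower in 1, the erythroid-like cells. At 1 day it was at least 2-fold higher in 3 and lower in 4 of 13 classes with enough UMIs. The lower ones were erythroid-like cells and 3 granulocyte classes at low levels: 15.6, 5.97 and 41 CPM in cluster 5, 10.5, 2.76 and 12.4 CPM in neutrophil precursor-like and 11.6, 4.06 and 14.7 CPM in neutrophil-like cells.

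Klf2, a factor that holds naive lymphocytes in quiescence and drives S1pr1, stood at its highest level in B-like cells of 7d. The B-like values were 562 CPM in Ctrl, 491 in 1d and 2344 in 7d, a 7d ratio of 4.17 (95% counting interval 3.92 to 4.44). In T-like cells they were 509.5 CPM in Ctrl, 682 in 1d and 1396 in 7d, a ratio of 2.74 (2.62 to 2.87), and in NK-like cells 391, 261 and 688 CPM, a ratio of 1.76 (1.61 to 1.92). In the 1d library the B-like and NK-like levels were slightly below Ctrl (0.874, interval 0.787 to 0.968, and 0.668, interval 0.516 to 0.854). After thinning, a Klf2 UMI was present in 31.8%, 26.8% and 75.8% of B-like cells in Ctrl, 1d and 7d, and without thinning in 43.8%, 47.4% and 83.5%. The lowest thinned share of any class in 7d was 3.59%, in erythroid-like cells.

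In dendritic-like cells, cluster 7 and progenitor-like cells the highest Klf2 level was in 1d instead. Dendritic-like cells held 60.5 CPM in Ctrl, 424 in 1d and 165 in 7d, so that the ratio was 7.02 (5.24 to 9.56) at 1 day and 2.73 (1.99 to 3.78) at 7 days. Cluster 7 held 169 CPM in Ctrl, 426 in 1d and 192 in 7d, with ratios of 2.52 (2.24 to 2.84) and 1.14 (0.984 to 1.31). Progenitor-like cells held 90.3, 256 and 196 CPM, with ratios of 2.83 (2.37 to 3.4) and 2.17 (1.82 to 2.61). In neutrophil-like cells the 3 levels lay closer together and 7d was highest, at 587, 593 and 678 CPM. Klf2 RNA of dendritic-like cells was concentrated in few cells: the 10% of cells with the most Klf2 held 71.7% of it in 1d, 67.9% in Ctrl and 64% in 7d.

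Klf6, a broadly expressed factor induced in activated myeloid cells, did not share this pattern. It was at least 2-fold higher in no class at either time, against 2 classes lower at 7 days and 1 at 1 day. In neutrophil-like cells, where Ctrl held the highest Klf6 level of any class, the values were 2043 CPM in Ctrl, 1382 in 1d and 1324 in 7d, a 7d ratio of 0.648 (95% counting interval 0.589 to 0.712). Cluster 7 held 1298, 1305 and 1244 CPM in Ctrl, 1d and 7d, so the 3 libraries lay close together. The lymphocytes were higher in 7d by less than 2-fold, with ratios of 1.97 (1.8 to 2.17) in B-like, 1.8 (1.71 to 1.9) in T-like and 1.4 (1.28 to 1.53) in NK-like cells. In cluster 12 the 7d level was the lower one, 337 CPM against 799 in Ctrl and 789.9 in 1d (7d ratio 0.422, interval 0.364 to 0.486).

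**Figure D2:**
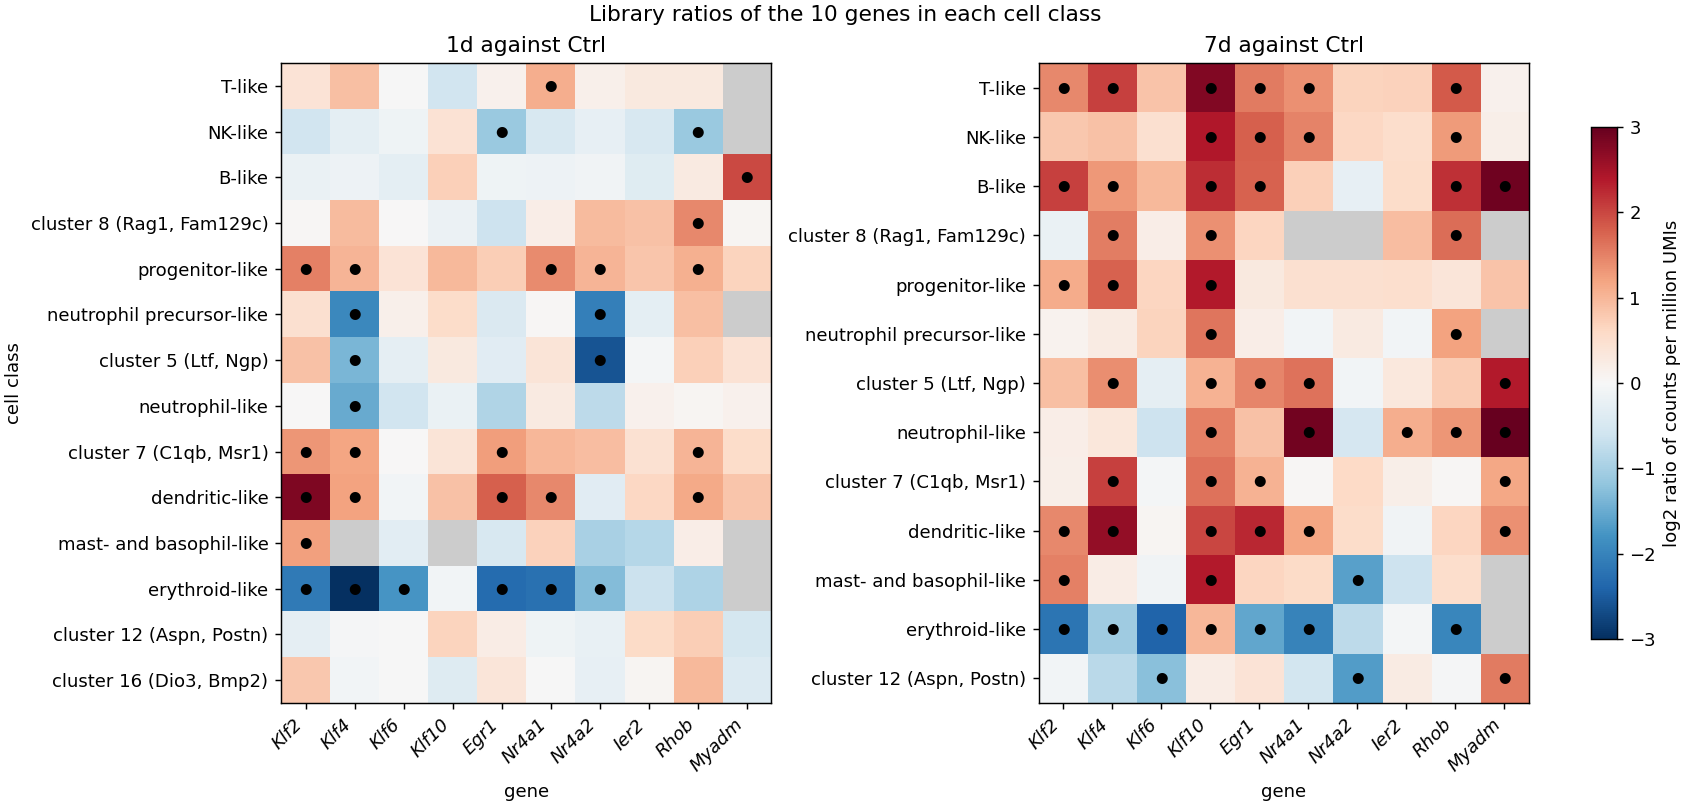
Ratios of CPM to Ctrl, on a log2 scale, for the 10 genes (columns) in each cell class (rows) at 1 day (left) and 7 days (right). Dots mark a ratio of at least 2 or at most 0.5 and grey marks fewer than 20 UMIs over both libraries; at 7 days Klf10 carries a dot in 12 of 13 classes and Nr4a2 is higher in none.

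Egr1, the zinc finger factor used as a marker of recent growth factor or receptor signalling, was highest in clusters 12 and 16 in Ctrl and 1d, and in cluster 12 in 7d. Cluster 12 held 1801 CPM in Ctrl, 2093 in 1d and 2384 in 7d, and cluster 16 held 1900 CPM in Ctrl and 2428 in 1d. Those ratios stayed under 2-fold (1.16, interval 1.11 to 1.22, and 1.32, interval 1.25 to 1.4 in cluster 12). In lymphocytes Egr1 was lower overall and higher in 7d: 122, 133 and 364 CPM in T-like, 127, 58.9 and 440.2 CPM in NK-like and 195, 178 and 665 CPM in B-like cells of Ctrl, 1d and 7d. The 7d ratios were 2.97 (95% counting interval 2.71 to 3.27), 3.46 (3 to 4.01) and 3.4 (3.04 to 3.8) in that order. NK-like cells of 1d, with 16 Egr1 UMIs in 50 cells, were below Ctrl at 0.463 (0.26 to 0.769). Dendritic-like cells held 47.9 CPM in Ctrl, 166 in 1d and 231 in 7d, higher than Ctrl at both times (3.46, interval 2.43 to 5.02, and 4.82, interval 3.46 to 6.85). Neutrophil-like cells had the lowest level in 1d and the highest in 7d, with 356, 190.2 and 652 CPM, both within 2-fold of Ctrl.

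Nr4a1, which antigen receptor signals induce in lymphocytes, was most abundant in B-like cells in all 3 libraries, at 850.3 CPM in Ctrl, 771 in 1d and 1398 in 7d. The B-like 7d ratio was 1.64 (95% counting interval 1.54 to 1.76), under 2-fold. T-like cells held 176, 378 and 459 CPM, so that both irradiated libraries were above Ctrl, with ratios of 2.15 (1.86 to 2.48) and 2.61 (2.41 to 2.83). NK-like cells held 252, 180.4 and 703 CPM, with ratios of 0.717 (0.522 to 0.965) and 2.8 (2.52 to 3.11), so there 1d was the lowest library. The widest ratio was in neutrophil-like cells: 62.9 CPM in Ctrl, 75.6 in 1d and 469.8 in 7d, from 400, 93 and 160 UMIs, and a 7d ratio of 7.48 (6.18 to 9). It was as wide in each of the 2 neutrophil-like clusters, at 7.74 in cluster 1 and 8.51 in cluster 4. In cluster 4, with 42 cells in 7d, 37% of all genes tested were at least 2-fold higher. The thinned share of neutrophil-like cells with an Nr4a1 UMI was 6.16%, 6.36% and 35.9% in Ctrl, 1d and 7d. The Ltf- and Ngp-rich cluster 5 followed in size, with 88.3, 115 and 275 CPM and a 7d ratio of 3.12 (2.66 to 3.66).

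Nr4a2, of the same receptor family, was at least 2-fold higher than Ctrl in no class at 7 days and in 1 at 1 day, the progenitor-like cells (2.02, interval 1.55 to 2.68). Its highest level was in NK-like cells, at 663 CPM in Ctrl, 563 in 1d and 1015 in 7d, and T-like cells came next among lymphocytes with 401, 446 and 637 CPM. Their 7d ratios were 1.53 (95% counting interval 1.43 to 1.64) and 1.59 (1.5 to 1.68). B-like cells, the class with the highest Nr4a1 level, held 104, 96.5 and 88.7 CPM of Nr4a2. The count in neutrophil-like cells of 7d was 3 UMIs, so its ratio has a wide interval, 0.701 (0.142 to 2.12). In cluster 12 Nr4a2 was lower in 7d, with 408, 350.2 and 128 CPM and a ratio of 0.315 (0.247 to 0.396). At 1 day it was lower in cluster 5 (29.7, 4.92 and 27.9 CPM in Ctrl, 1d and 7d, 1d ratio 0.166, interval 0.105 to 0.253), in neutrophil precursor-like cells (0.241, interval 0.139 to 0.425) and in erythroid-like cells (0.402, interval 0.217 to 0.71).

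**Figure D3:**
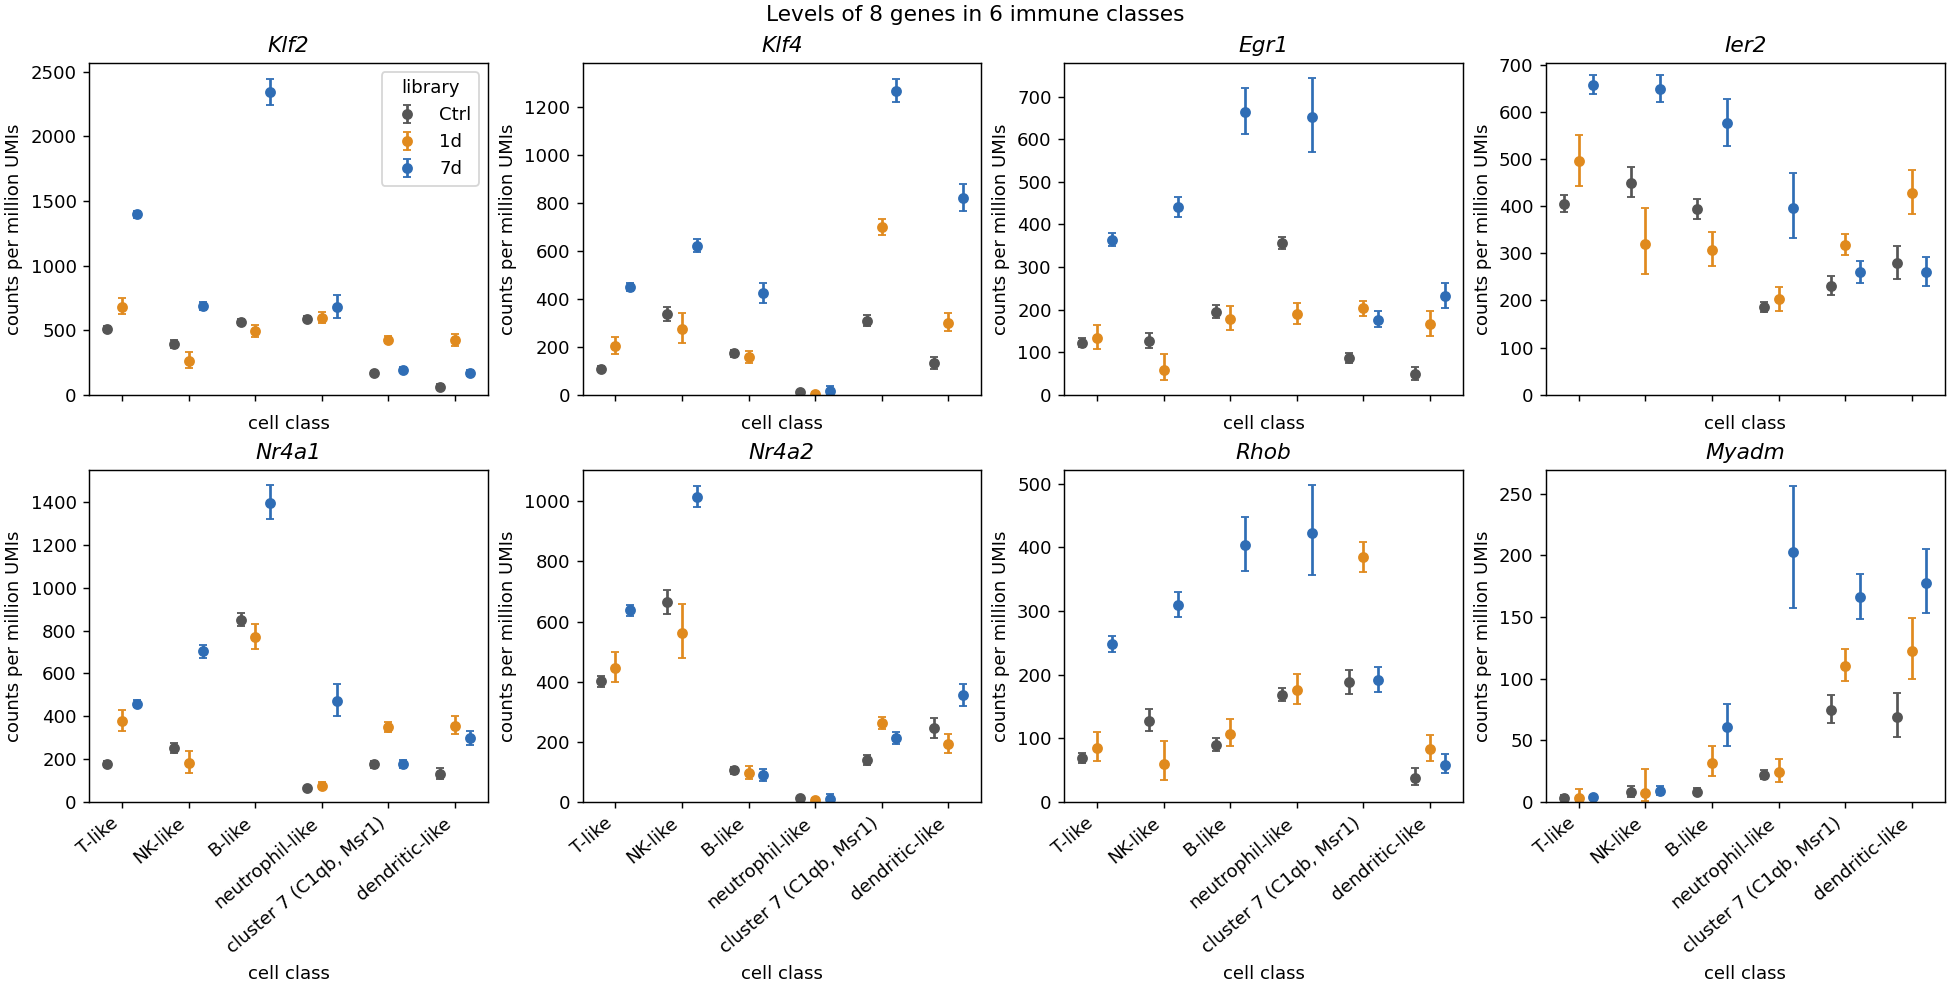
Levels of 8 of the genes in 6 immune classes, in CPM on linear axes from 0. Each point is 1 library (grey Ctrl, orange 1d, blue 7d) with its exact 95% Poisson interval; in T-like, NK-like and B-like cells the 7d points of Klf2, Egr1, Nr4a1 and Rhob lie above the other 2 libraries, while in cluster 7 and dendritic-like cells Klf2 and Rhob are highest in 1d.

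Ier2, which encodes a nuclear immediate early protein, was the most even member. It passed 2-fold in 1 class at 7 days, the neutrophil-like cells with 186 CPM in Ctrl, 202 in 1d and 396 in 7d (ratio 2.13, interval 1.77 to 2.55), and in none at 1 day. T-like, NK-like and B-like cells held 405, 495 and 658 CPM, 449.7, 320.2 and 649 CPM and 393, 307 and 576 CPM, so their 7d levels were the highest of the 3 libraries with ratios of 1.62, 1.44 and 1.47. In dendritic-like cells the 1d library was highest (278, 428 and 259.9 CPM).

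Rhob encodes a small GTPase of endosomes that stress and growth signals induce. In Ctrl it was highest in endothelial-like cells, at 941 CPM, a class with too few cells in 1d and 7d to compare. B-like cells held 89.1 CPM in Ctrl, 107 in 1d and 404 in 7d, a 7d ratio of 4.54 (95% counting interval 3.89 to 5.3). T-like cells held 69.3, 84.9 and 248 CPM (ratio 3.58, interval 3.17 to 4.05), NK-like cells 127, 58.9 and 309.6 CPM (2.43, interval 2.1 to 2.83) and neutrophil-like cells 168, 176 and 423 CPM (2.51, interval 2.1 to 2.99). In these 4 classes 7d was above both other libraries. In cluster 7 only 1d was high, with 188, 384 and 191 CPM, and likewise in progenitor-like cells with 129, 269 and 168 CPM. The 1-day ratio in progenitor-like cells was 2.08 (1.79 to 2.43), and it was 0.99 when cells were thinned to 1000 UMIs. In NK-like cells of 1d, with 16 Rhob UMIs, it was 0.463 (0.26 to 0.769), and 1.02 after thinning. In cluster 16 the 1d level, 586 CPM, was above the Ctrl level, 300 CPM, by a ratio of 1.96 (1.77 to 2.16).

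Myadm encodes a membrane protein with MARVEL domains that was found as a marker of myeloid differentiation. It was scarce in T-like cells (3.34, 2.93 and 3.65 CPM) and NK-like cells (7.69, 7.36 and 8.64 CPM), where the intervals of the 3 libraries overlapped. In neutrophil-like cells it was 22.2 CPM in Ctrl, 24.4 in 1d and 203 in 7d, the widest ratio of any member and class at 9.15 (95% counting interval 6.76 to 12.3). By cluster the ratio was 6.07 (4.17 to 8.71) in cluster 1, with 113 cells in 7d, and 23.8 (13.8 to 40.3) in cluster 4, with 42. Of all genes tested, 13.9% were at least 2-fold higher in 7d in cluster 1 and 37% in cluster 4. In B-like cells both irradiated libraries were above Ctrl, from low levels, with 8, 31.5 and 60.6 CPM and ratios of 3.93 (2.26 to 6.86) and 7.58 (4.72 to 12.4). Cluster 7 held 74.8, 110.5 and 166 CPM and dendritic-like cells 68.5, 122 and 178 CPM, both in the order Ctrl, 1d, 7d, although the order did not hold in each group of cells within cluster 7. Cluster 12 held 85.6, 59.4 and 253 CPM, a 7d ratio of 2.96 (2.42 to 3.6). The thinned share of neutrophil-like cells with a Myadm UMI was 1.89%, 1.47% and 20.4%, against 0.386%, 0.621% and 0.382% in T-like cells.

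By class, 6 of 10 members were higher in 7d in T-like cells and 6 of 10 in B-like cells, against 3.97% and 3.54% of all genes tested there. NK-like cells had 4 of 10 (5.04% of all genes), cluster 5 had 5 of 10 (4.92%), cluster 7 had 4 of 10 (8.09%), dendritic-like cells 6 of 10 (8.76%), neutrophil-like cells 5 of 10 (18.2%), progenitor-like cells 3 of 10 (7.8%) and cluster 8 had 3 of 7 (10.3%). At 1 day the dendritic-like cells had 5 of 10 higher (8.01% of all genes), the progenitor-like cells 5 of 10 (7.83%) and cluster 7 had 4 of 10 (6.34%). The first count was 3 when doublets were kept and 3 at resolution 0.5. The second was 2 under a stricter cell filter and 2 when the inducible genes were kept in the clustering. At 7 days the count of cluster 5 was 2 with thinned cells, and that of cluster 8 was 0 at a minimum of 100 UMIs. Erythroid-like cells went the other way, with 6 of 9 lower at 1 day (20.7% of all genes) and 6 of 9 lower at 7 days (30.2%). The 1-day count there was 3 at a minimum of 100 UMIs. The median log2 ratio of all genes tested was 0.19 in neutrophil-like and −0.12 in T-like cells of 7d. Among the classes, the scale moved most in erythroid-like cells, with a factor by trimmed means (TMM) of −0.617 on the log2 scale at 7 days. In neutrophil-like cells the factor was 0.36. With that factor 3 members instead of 5 stayed past 2-fold there: Nr4a1, Myadm and Klf10 kept ratios above 2. By neutrophil-like cluster, the log2 factor at 7 days was 0.36 in cluster 1 and 0.715 in cluster 4.

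The makeup of the erythroid-like class by cluster differed between libraries, and its part in the lower counts was not tested. Cluster 14, led by Slc4a1, held 8 of the 169 cells of the class in Ctrl, 93 of 111 in 1d and 369 of 422 in 7d, and the Ctrl cells carried 66250 CPM of Igkc against 35.7 in 7d. In cluster 21 alone, with 94 Ctrl and 44 7d cells, 3 of 9 members were higher and 1 lower, against 13.1% and 22.8% of the 2545 genes tested there. There Klf4 had a ratio of 6.37 (3.52 to 12.5) where the class as a whole had 0.481. Klf2 was at 1.04 (0.819 to 1.32) in cluster 21 where the class had 0.219. Cluster 14 had too few Ctrl cells to be compared at either time. At 1 day cluster 21, with 14 cells in 1d, was also too small, so the 1-day count was not checked within a cluster.

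Cluster 7 also differed in makeup between libraries. At a finer resolution it split into 3 groups, here called by their markers. The first had Ly6c2 and little C1qb and held 395 cells in Ctrl, 212 in 1d and 45 in 7d. The second had the highest Ly6c2, 1164, 1551 and 1611 CPM, with 48, 149 and 279 cells. The third, with C1qb at 2074 CPM in Ctrl, had 63, 30 and 20. Klf10 was highest in 7d in each: 54.6, 58.9 and 121 CPM in the first group, 62.2, 77.2 and 165 in the second and 20.7, 41.9 and 82.8 in the third. Klf4 was 269.9, 269.9 and 1086 CPM in the first group and 646, 1370 and 1336 in the second, so that in the first group 1d and Ctrl were level. Klf2 was highest in 1d in the second group only, at 539, 989 and 184 CPM, and highest in 7d in the first (132, 62.4 and 164 CPM) and the third (93, 172 and 331 CPM). Rhob in 1d was at 750.4 CPM in the second group and 133 in the first. Myadm was highest in 7d in the first group (56.4, 94.7 and 142 CPM) and highest in Ctrl in the second (232, 142 and 179.6 CPM). In the third group, with 8 to 21 Myadm UMIs a library, it was at 54.3, 71.2 and 55.2 CPM. In the second group Nr4a1 was lower in 7d, 150.3 CPM against 738 in Ctrl, while the cluster as a whole had a ratio of 1.02.

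The number of members found per cell was also higher in 7d lymphocytes. This number rises with the level of each gene, and co-occurrence beyond that was not tested. After thinning to 1000 UMIs, which left out 23 of the 1858 T-like cells of 7d and 247 of the 2684 neutrophil-like cells of Ctrl, T-like cells held 3 or more of the 10 genes in 22.1% of cells in Ctrl, 31.7% in 1d and 65.2% in 7d. The mean number of members per cell was 1.62, 1.86 and 3.18. NK-like cells with 3 or more went from 30.9% in Ctrl and 30.6% in 1d to 70.4% in 7d, and B-like cells from 26.4% and 21.2% to 67.3%. Neutrophil-like cells stood at 27.1%, 22.7% and 59.9%. Cluster 12 was high in every library and lowest in 7d, at 70.7%, 65.3% and 59%, and neutrophil precursor-like cells were low throughout, at 11%, 5.31% and 9.43%. Cells are not replicates of a condition, so these shares carry no test.

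**Figure D4:**
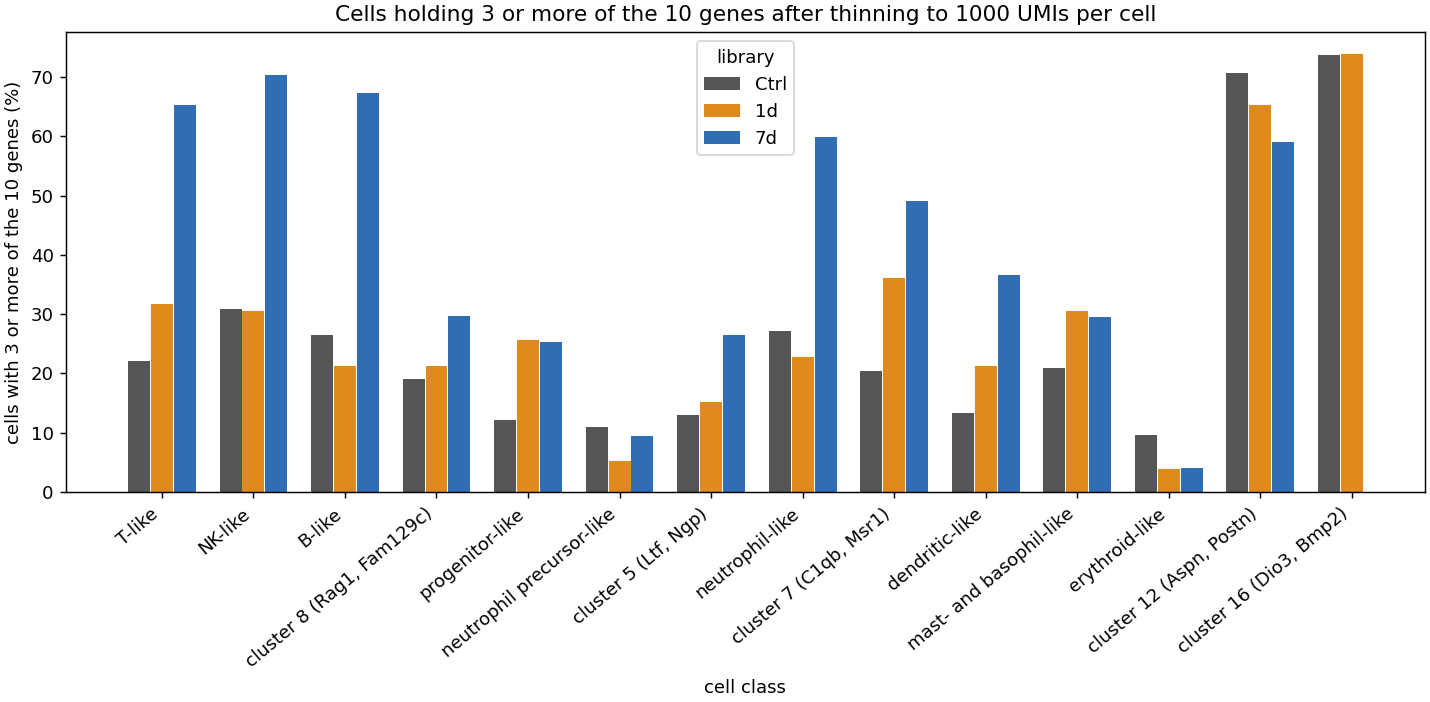
Share of cells, in percent, that held 3 or more of the 10 genes after each cell was thinned to 1000 UMIs, by cell class and library (grey Ctrl, orange 1d, blue 7d). The 7d bars of T-like, NK-like, B-like and neutrophil-like cells reach 59.9% to 70.4%, against 22.1% to 30.9% in Ctrl, while cluster 12 is above 59% in all 3 libraries; cluster 16 had too few cells in 7d.

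Depth and foreign RNA were measured beside these values. The median mitochondrial share of T-like cells was 2.73%, 2.34% and 2.8% and their median depth 3176, 3858 and 3314 UMIs in Ctrl, 1d and 7d. All 10 neutrophil markers had UMIs in T-like cells of each library, summing to 865, 807 and 249 CPM, and the erythroid list summed to 10510, 362 and 3690 CPM, so both were lower in 7d than in Ctrl. Other lists were higher there in 7d than in Ctrl. Among them, the monocyte markers summed to 546, 445 and 702 CPM and the plasma cell markers to 149, 126 and 204. In neutrophil-like cells of 7d all 8 B-cell markers were at 0, and 5 of 12 T cell markers summed to 29.4 CPM against 26.1 in Ctrl. Other lists did differ there between Ctrl and 7d: the 9 monocyte markers summed to 366 and 637 CPM and the 9 osteoblast markers to 2652 and 443. The 7 osteoclast markers summed to 618 and 1671, with 5 of them at 0 in 7d. Those left were Ctsk and Mmp9, and Mmp9 is also on the neutrophil list. In cluster 7 the 10 neutrophil markers summed to 17990, 5377 and 1770 CPM in Ctrl, 1d and 7d, and the erythroid list to 11170, 6250 and 17630. Haemoglobin RNA of dendritic-like cells was at 5106, 2509 and 12490 CPM. These erythroid and haemoglobin values were highest in 7d. The part of such foreign RNA in the values of the members was not tested. When 5% of each class was taken to be free RNA of its library and subtracted, 47 pairs instead of 48 were higher in 7d.

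Over all kept cells of a library, the values differed from those within classes. Klf10 alone passed 2-fold in 7d, at 2.72 (95% counting interval 2.57 to 2.88). Egr1 had a ratio above 1 in 12 of the 13 classes taken one by one, 6 of them at least 2-fold, and was below Ctrl in the whole library, at 249 CPM against 493 in Ctrl (0.506, interval 0.493 to 0.518). The cells richest in Egr1, those of clusters 12 and 16, were 61 and 25 of 6094 cells in 7d and 384 and 267 of 8623 in Ctrl.

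Related inducible genes were read from lists that were drawn up with earlier results of these data known. Of the 17 other KLF, EGR and NR4A genes, 10 had enough UMIs in T-like cells and 7 of these were at least 2-fold higher in 7d, none lower, with a median log2 ratio of 1.13 against −0.12 over all genes tested. They included Nr4a3 at 3.78, Klf11, the closest relative of Klf10, at 3.04, and Egr2 at 2.55. In NK-like cells 6 of 11 were higher, in neutrophil-like cells 5 of 9, with Nr4a3 at 4.43 and Klf3 at 2.83, and in B-like cells 2 of 9, with Klf3 at 2.69. In cluster 7 Klf3 and Klf9 were higher (3.55 and 3.47) and Klf7 and Egr3 lower (0.346 and 0.331).

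The AP-1 and small MAF genes, partners of many immediate early programmes, split in T-like cells: 4 of 12 were higher in 7d, among them Maff (3.74), Mafk (3.28) and Fosb (2.9), Batf was lower (0.449) and Fos itself had a ratio of 0.872. In cluster 7 Mafk had the highest ratio of the named AP-1 and MAF genes (5.05). Of 26 feedback and RNA decay genes, 6 were higher in T-like cells and none lower, with the MAP kinase phosphatase gene Dusp6 at 2.92, Csrnp1 at 2.46 and Dusp2 at 2.34. Csrnp1 was also higher in B-like cells (3.05).

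The antigen receptor list held ratios on both sides. In T-like cells Cd69, an early activation antigen, was higher in 7d at 2.54, and Tnfrsf9, Il2ra and Tnfrsf4, which activated and regulatory T cells carry, were lower at 0.237, 0.434 and 0.471. The makeup of the class differed too: the cluster 13 cells, rich in Foxp3 and Tnfrsf4, were 280 of 1311 T-like cells in Ctrl and 199 of 1858 in 7d. Within cluster 13 alone, 1 of 11 genes of the list was higher and 1 lower. Of 8 trafficking genes linked to KLF2, none was at least 2-fold higher in T-like cells and S1pr4 was lower (0.476), with S1pr1 at 0.822 and Ccr7 at 0.873. In B-like cells the integrin gene Itgb7 was higher (3.67) and S1pr1 had a ratio of 0.776, beside the Klf2 ratio of 4.17.

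Heat shock genes, which digestion of tissue is also known to induce, had a median log2 ratio of 0.04 in T-like cells of 7d, with 1 of 13 higher and 1 lower. Hspa8 was at 2.01 and the strongly inducible Hspa1a and Hspa1b at 0.654 and 0.767. In B-like cells 4 of 13 were higher, with Hspa1b at 2.42. In dendritic-like cells of 1d, where Klf2, Klf4, Egr1, Nr4a1 and Rhob were higher, 8 of 13 heat shock genes were higher as well, with a median log2 ratio of 1.10. The corresponding counts at 1 day were 3 of 13 in cluster 7 and 4 of 13 in progenitor-like cells. In mast- and basophil-like cells of 1d 10 of 12 heat shock genes were higher, beside 1 of 7 members and 17.6% of all genes. In T-like cells of 1d 5 of 13 were higher, beside 1 of 9 members and 3.8% of all genes. In NK-like cells of 1d 4 of 13 heat shock genes were lower, beside 2 of 9 members and 9.19% of all genes. The part of digestion in the values of the members was not tested. Of 9 genes known as glucocorticoid targets, 4 were higher in T-like cells of 7d, Txnip (4.65), Per1 (2.68) and Tsc22d3 (2.19) leading, and 6 of 8 in neutrophil-like cells, where Tsc22d3 was at 6.29. Of the 11 MARVEL genes other than Myadm, 6 had enough UMIs in T-like cells and none of these passed 2-fold in 7d. With TMM factors the neutrophil-like counts of the lists were smaller, 2 instead of 5 for the other KLF, EGR and NR4A genes and 3 instead of 6 for the glucocorticoid targets.

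Across 48 class-by-library sums, the members were only loosely alike. The closest pair was Klf4 and Nr4a2 (Pearson r 0.742 on log2 CPM plus 10), followed by Klf4 and Nr4a1 (0.641), Nr4a1 and Nr4a2 (0.613) and Egr1 and Ier2 (0.612). Klf10 was closest to Myadm (0.551), and Nr4a2 and Rhob had an r of −0.116. These points share libraries and cells, so the coefficients are descriptions. Among 5914 genes with a mean of at least 20 CPM, those most like Klf10 were Arf6 (0.683), Irf2bp2 (0.666) and Zfp36l2 (0.665). Those most like Egr1 were Fosb (0.877), Dnajb9 (0.853) and Midn (0.796), and those most like Klf4 were Ahnak (0.9), Plekha1 (0.899) and Rab12 (0.869). Fosb, an AP-1 gene, is itself an immediate early gene. Nr4a1 was most like Clock (0.739), Sec16a (0.712) and Ier5 (0.707), and Nr4a2 like Arl6ip5 (0.846), Rrad (0.814) and Nfatc2 (0.814). Genes like Klf2 included Lmbr1l (0.775) and Arhgef18 (0.761). Klf6 was most like Notch2 (0.848), Nfkbiz (0.823) and Hif1a (0.809), and Ier2 like Nfat5 (0.689), Junb (0.669) and Rabac1 (0.656). Rhob was most like Ppp4r1 (0.712), Eif4g2 (0.679) and Dusp6 (0.673), and Myadm like 5031439G07Rik (0.788), Psap (0.788) and Spop (0.738).

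The genes lie on 8 chromosomes of GRCm38 in the GENCODE annotation: Klf10 at chr15:38291463-38300706 and Nr4a1 at chr15:101254269-101274795 share chromosome 15, and Klf2 at chr8:72319033-72321656 and Ier2 at chr8:84661331-84662852 share chromosome 8. Egr1 lies at chr18:34859823-34864984, Klf4 at chr4:55527143-55532466, Klf6 at chr13:5861482-5870394, Nr4a2 at chr2:57106830-57124003, Rhob at chr12:8497661-8500009 and Myadm at chr7:3289080-3300442. All 10 are protein-coding, and 9 of them overlap no other annotated gene on either strand. This does not hold for Myadm, whose counts are less certain for that reason.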

How the data were processed

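Single-cell RNA was measured in 3 libraries of mouse jaw tissue, Ctrl, 1d and 7d, each from 8 pooled mice and each taken as a group of 1 from its sample label. The deposited matrices hold UMI counts per gene and cell barcode that the authors made. Per the submitters' processing notes, CASAVA 1.8, Cell Ranger, Seurat and the mm10 build were used, with no role or order given for each. The version of Cell Ranger, 6.1.1, is from the header of the Ctrl matrix. Total kept UMIs were 35960821, 39758246 and 39854533 in Ctrl, 1d and 7d.

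From these counts, cells were kept from 500 UMIs and 250 genes upward if mitochondrial UMIs did not exceed 15%. Doublets were scored with Scrublet. The automatic threshold was used in Ctrl, where it removed 257 cells, and because it marked under 0.5% of cells in 1d and 7d, a rate of 0.8% per 1000 barcodes was used there, which removed 248 and 403. Cells were scaled to 10000 counts, reduced to 2000 variable genes and 30 principal components, and clustered over 15 neighbours by the Leiden method at resolution 1 (scanpy 1.11.5, leidenalg 0.10.2, numpy 2.4.6, scipy 1.17.1). The members and lists were left out of the variable genes. Classes were rebuilt from marker lists by a naming rule set after the clusters were seen, so a difference from the study's own cell types may come from the names.

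UMIs were summed per class and library. Intervals of levels are exact Poisson intervals, and those of ratios are exact conditional binomial intervals, all at 95% and for counting error only. Without replicates no test was made. The ratios and their intervals were tried on simulated Poisson counts. Those hold no variation between cells, mice or libraries, so the trial covers counting error only. Genes named in the text are the 10 members, up to 3 genes per direction from each list whose ratio lay furthest from 1 by the nearer end of its interval, in classes with at least 100 cells in all 3 libraries, and the 3 genes most like each member. Some genes that this rule names are not reported here. The members and lists were chosen with earlier results of these data known. Alternatives covered the cell filter, doublets, resolution, the genes used to cluster, thinning, free RNA, TMM factors, the minimum count and the clusters used. Another 2 sets of classes were added after seeing the data.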

Additional observations from a re-analysis of the deposited data

Results flagged for a closer look

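Several genes had ratios to Ctrl on opposite sides in different classes of the same comparison. Each class has 1 library per condition, so these differences were not tested.

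Klf2 had its highest 1-day ratio in dendritic-like cells, 7.016, and its lowest in erythroid-like cells, 0.2317. At 7 days the extremes were 4.169 in B-like and 0.2187 in erythroid-like cells. For Klf4 the 1-day extremes were 2.291 in dendritic-like and 0.08275 in erythroid-like cells, and those at 7 days were 6.251 and 0.4813 in the same classes.

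Egr1 stood at 3.459 in dendritic-like and 0.2027 in erythroid-like cells at 1 day, and at 4.815 and 0.3402 at 7 days. Nr4a1 stood at 2.739 in dendritic-like and 0.2128 in erythroid-like cells at 1 day. Its 7-day extremes were 7.475 in neutrophil-like and 0.2475 in erythroid-like cells.

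Nr4a2 at 1 day was at 2.024 in progenitor-like cells and 0.1655 in cluster 5. Rhob at 1 day was at 2.701 in cluster 8 and 0.4629 in NK-like cells, and at 7 days at 4.536 in B-like and 0.2565 in erythroid-like cells. The erythroid-like class is the low side of most of these pairs, and its makeup by cluster differed between libraries as given above.

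In 3 cases the ratio was at most 0.5 at 1 day and at least 2 at 7 days in the same class, which was not tested either. In NK-like cells Egr1 was at 0.4629 at 1 day and 3.46 at 7 days, and Rhob at 0.4629 and 2.433. In cluster 5 Klf4 was at 0.3836 and 2.631.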

How the results depend on the processing

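The count of member-by-class pairs higher in 7d, 48, lay between 37 and 51 under all alternatives run. The count lower in 7d, 9, was 3 with only the largest cluster of each class and 3 without erythroid-like cells and cluster 7. The count higher in 1d, 18 of 133 pairs, was 6 of 78 with only classes of at least 100 cells in both libraries. Over all genes and all 14 classes the share higher was 6.85%. The count lower in 1d, 13, was 6 at a minimum of 100 UMIs, 6 with only the largest cluster and 7 without erythroid-like cells and cluster 7. These alternatives hold fewer classes or pairs. The sets of classes were chosen after seeing the data.

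At 1 day the ratio of Rhob turned with thinning to 1000 UMIs, to 1.021 in NK-like and 0.9899 in progenitor-like cells, and the cause was not tested. Of the 57 called pairs of 7d none reversed under the alternatives named before the 2 added sets of classes, and 45 to 57 stayed past 2-fold. For the 31 of 1d, 19 to 31 did. No cluster 8 was found under the stricter filter, and no erythroid-like class was compared with only the largest cluster. Leaving out a replicate was not possible with 1 library per condition. No paired analysis was possible because each condition has 1 library. Depth limits Myadm most: 9 of 13 classes had enough UMIs at 7 days and 9 of 14 at 1 day.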
